A study of Homo sapiens with 4 samples.

Results

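Chromatin accessibility was described at 10 keratin genes on chromosome 12, the type II genes KRT1, KRT2, KRT4, KRT5, KRT6A, KRT6B, KRT6C, KRT7 and KRT8 and the type I gene KRT18 that lies beside KRT8. Every peak with its summit inside one of these genes or within 20 kb of one of their annotated start sites was taken, which gave 29 of 101142 CTR peaks and 42 of 109486 p63 peaks. A peak with a −log10 q-value of 10 or more is called a region here, and the rule was met by 14 of the 56680 CTR regions and by 22 of the 62343 p63 regions. The data came from ATAC-seq, in which the Tn5 transposase cuts open chromatin, and the cells were BJ, a widely used human fibroblast cell line. Both groups were polyclonal lines with a stable rtTA transactivator and a retroviral, doxycycline-inducible construct, and both were treated with doxycycline. CTR cells expressed KLF4 alone (the group labelled empty), and p63 cells expressed ΔNp63α and KLF4 from 1 construct, so KLF4 and doxycycline were common to both. Each group had 2 samples, which were separate inductions of the same lines, but 1 peak list was deposited per group, so no value carries a replicate error and no difference between the groups could be tested.

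Keratins form the intermediate filaments of epithelial cells as pairs of a type I and a type II chain. KRT5 is the type II keratin of basal keratinocytes and pairs with KRT14. KRT6A, KRT6B and KRT6C are the stress keratins induced in wounded or activated epidermis, and KRT7, KRT8 and KRT18 belong to simple epithelia. KRT1 and KRT2 mark suprabasal epidermal layers, and KRT4 is the suprabasal keratin of mucosa that pairs with KRT13. p63 is a master regulator of stratified epithelia.

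The regions on which the account turns are shown on the plus strand of GRCh38 (hg38), from 100 bases before to 100 bases after the summit in the p63 list. The first 2 were the only peaks at the 10 genes with a p63 site, defined as the p53 family's full response element of 20 bases in which the C and G of each core had to match and at most 3 other bases did not, and capitals mark that site. In the next 2, shared by both lists, capitals mark an exact AP-1 motif (TGACTCA or its other form TGAGTCA, on either strand). The last 2 are p63-only regions without either, at the basal and the suprabasal genes, and have no capitals.
KRT5 upstream region, chr12:52522849-52523049: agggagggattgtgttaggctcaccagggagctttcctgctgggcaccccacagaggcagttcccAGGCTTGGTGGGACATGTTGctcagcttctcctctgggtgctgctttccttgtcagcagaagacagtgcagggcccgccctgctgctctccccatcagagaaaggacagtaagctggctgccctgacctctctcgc
KRT8 long-isoform peak, chr12:52916620-52916820: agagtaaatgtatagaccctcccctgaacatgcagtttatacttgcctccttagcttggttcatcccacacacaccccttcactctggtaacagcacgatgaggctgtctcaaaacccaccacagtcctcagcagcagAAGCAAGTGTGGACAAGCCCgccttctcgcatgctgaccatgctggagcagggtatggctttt
KRT7 intron region, chr12:52244206-52244406: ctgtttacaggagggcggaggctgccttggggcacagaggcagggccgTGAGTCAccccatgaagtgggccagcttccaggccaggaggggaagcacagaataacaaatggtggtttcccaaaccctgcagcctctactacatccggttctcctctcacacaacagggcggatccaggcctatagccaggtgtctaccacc
KRT18 intron region, chr12:52949807-52950007: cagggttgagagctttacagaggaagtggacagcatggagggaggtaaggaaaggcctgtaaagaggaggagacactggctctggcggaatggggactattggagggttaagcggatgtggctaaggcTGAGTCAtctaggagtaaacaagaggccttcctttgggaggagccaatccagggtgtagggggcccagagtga
KRT5 downstream region, chr12:52508254-52508454: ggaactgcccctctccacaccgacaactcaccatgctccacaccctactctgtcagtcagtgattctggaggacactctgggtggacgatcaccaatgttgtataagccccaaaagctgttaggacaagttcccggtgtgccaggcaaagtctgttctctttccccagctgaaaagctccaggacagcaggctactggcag
KRT1 upstream region, chr12:52684379-52684579: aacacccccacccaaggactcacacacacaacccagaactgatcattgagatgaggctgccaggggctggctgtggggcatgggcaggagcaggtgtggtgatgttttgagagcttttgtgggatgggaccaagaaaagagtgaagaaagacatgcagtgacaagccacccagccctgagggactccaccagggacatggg

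Of the 22 regions of the p63 list, 12 overlapped a region of the CTR list by at least 1 bp and are called shared, and 10 did not and are called p63-only. That was 45.5% of the keratin regions (95% Wilson interval 26.9% to 65.3%, counting error only), against 23.9% of all regions of the p63 list. At a −log10 q of 20 or more the keratin share was 4 of 12, or 33.3%, against 24.6% of all, and with a window of 50 kb it was 13 of 39, or 33.3%, against 23.9%. At 6 of the 10 p63-only regions the CTR list held a peak below the threshold, and at 4 it held no peak at all. The share of all p63-list regions without any CTR peak was 12%. Of the 14 CTR regions, 12 were shared and 2 were CTR-only (background 16.5%). Both CTR-only regions had a peak below the threshold in the p63 list, and no keratin region of the CTR list lacked a p63 peak, as 3.29% of all CTR regions did. Counted over peaks of any strength, 17 of 42 p63 peaks had no CTR counterpart (background 27.1%) and 4 of 29 CTR peaks had no p63 counterpart (background 21.4%).

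A p63-only region lay in reach of 7 of the 10 genes, namely KRT1, KRT2, KRT4, KRT5, KRT6A, KRT7 and KRT8, where 40% of all protein-coding genes had one by the same rule. A CTR-only region lay in reach of KRT8 and KRT18 (background 27.4%). The genes are close neighbours, and 9 p63 peaks and 5 CTR peaks were in reach of more than 1 of them. Each peak was therefore placed once, with the gene of the 10 that held its summit or otherwise had the nearest start site. Keratin genes outside the 10 were not considered for this, and their start sites could lie nearer. That was so of KRT75 for both KRT6B regions and KRT3 for both KRT4 regions. It was also so of KRT71 for the KRT5 region at −18.86 kb and KRT77 for the KRT1 region at −18.68 kb. With this placement, the peak map shows p63-only regions at the basal, suprabasal, mucosal and simple-epithelium genes. All regions placed with the stress genes were shared.

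**Figure D1:**
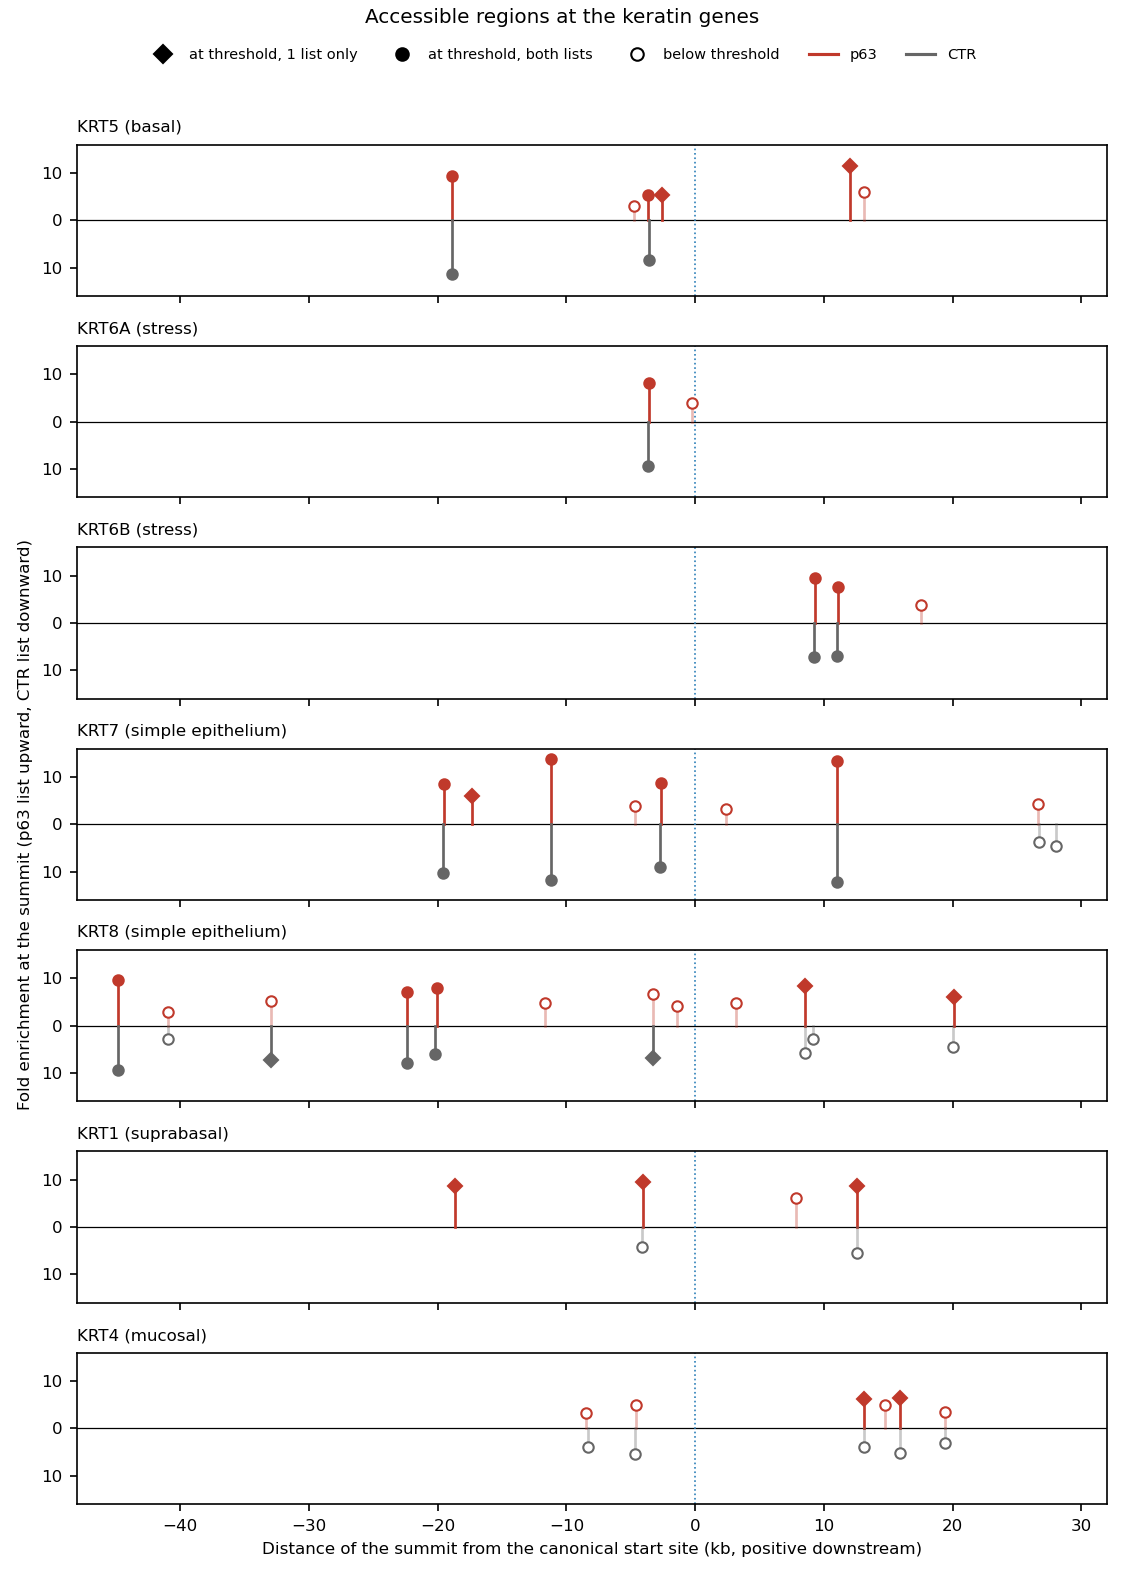
Fold enrichment at the summit (vertical axis, p63 list upward in red and CTR list downward in grey) against the distance of the summit from the canonical start site in kb (horizontal axis, positive downstream). Diamonds are regions at the threshold in 1 list only, filled circles are shared regions and open circles are peaks below the threshold. KRT1 and KRT4 have diamonds in the p63 list and only open circles in the CTR list. KRT6C had no peak of its own, and the few peaks of KRT2 and KRT18, all below the threshold, are not drawn.

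At KRT5, the basal keratin, the CTR list had 2 regions and the p63 list had 4, of which 2 were p63-only. Neither p63-only region had a CTR peak of any strength beneath it. The upstream one, at chr12:52522456-52523022, had its summit at −2.56 kb from the canonical start site (negative values are upstream), with a fold enrichment of 5.42, a −log10 q of 19.7 and a pileup of 49. Pileup is the number of reads or fragments stacked at the summit, recovered here from the peak caller's values. The region held the site shown in capitals above, with 3 mismatches and its centre at −25.5 bp from the summit. The downstream one, at chr12:52508101-52508554, lay 12.04 kb past the KRT5 start site between KRT5 and KRT6A, and had the highest fold enrichment of the 10 p63-only regions, 11.55, at a pileup of 28. It had no p63 site, and it was also in reach of KRT6A.

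The 2 remaining KRT5 regions were shared. At −18.86 kb the pileup was 41 in both lists, and the fold enrichment was 11.3 in CTR and 9.40 in p63. At −3.63 kb the fold enrichment was 8.31 in CTR and 5.24 in p63, a ratio of 0.631 and the lowest of the keratin genes, while the pileup was 39 in CTR and 47 in p63. The peak caller's local background, the pileup expected from the reads in and around the region, was 3.81 in CTR and 8.16 in p63 there. Fold enrichment was lower in p63 at this region and the pileup was not. The p63 list placed 3 peaks between −2.56 and −4.71 kb of KRT5, and the CTR list placed 1. The outermost, at −4.71 kb, and a peak at 13.14 kb were p63 peaks below the threshold with no CTR counterpart. No peak of either list covered the canonical KRT5 start site.

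All 3 regions placed with the stress keratins were shared, 2 at KRT6B and 1 at KRT6A. This depends on the placement, because the p63-only region between KRT5 and KRT6A was counted with KRT5. By reach alone, KRT6A had 2 p63 regions, of which 1 was p63-only. The largest pileup ratio of the shared keratin regions was found past the 3′ end of KRT6B, at chr12:52442609-52443083 and 9.30 kb from its start site. The pileup there was 30 in CTR and 62 in p63, a ratio of 2.07 (95% exact interval 1.32 to 3.31, counting error only). The interval does not allow for the choice of the largest ratio. The fold enrichment was 7.25 in CTR and 9.42 in p63. Its neighbour at 11.12 kb had a pileup of 31 in CTR and 51 in p63, a ratio of 1.65 (1.03 to 2.66), and a fold enrichment of 7.02 in CTR and 7.64 in p63. Both regions lay nearer to the start site of KRT75, a type II keratin gene outside the 10, at 8474 and 6658 bp in the p63 list. The region at −3.62 kb from KRT6A had a pileup of 47 in CTR and 52 in p63, and the interval of the ratio ran from 0.731 to 1.68.

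KRT6A also had the peak nearest to a start site among the stress genes. It was a p63 peak at −0.25 kb from the start, at chr12:52493261-52493692, with a fold enrichment of 3.95, a −log10 q of 7.36 and a pileup of 25, below the threshold and with no CTR counterpart. KRT6C had no peak of its own in either list, and this KRT6A peak was the only one in its reach. The 3 stress genes are close copies of each other, which limits where short reads can be placed. Within 0.5 kb of the canonical start site, 60% of all 50-base sequences at KRT6A, 59.1% at KRT6B and 54.6% at KRT6C occurred once in the genome, against 100% at KRT5, KRT1, KRT2 and KRT4. At the simple-epithelium genes it was 99.5% at KRT7, 89.2% at KRT8 and 83.8% at KRT18. The shared stress regions themselves were 100% unique and the KRT6A start-site peak 92.2%. Whether reads that could not be placed affected these counts was not tested.

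**Figure D2:**
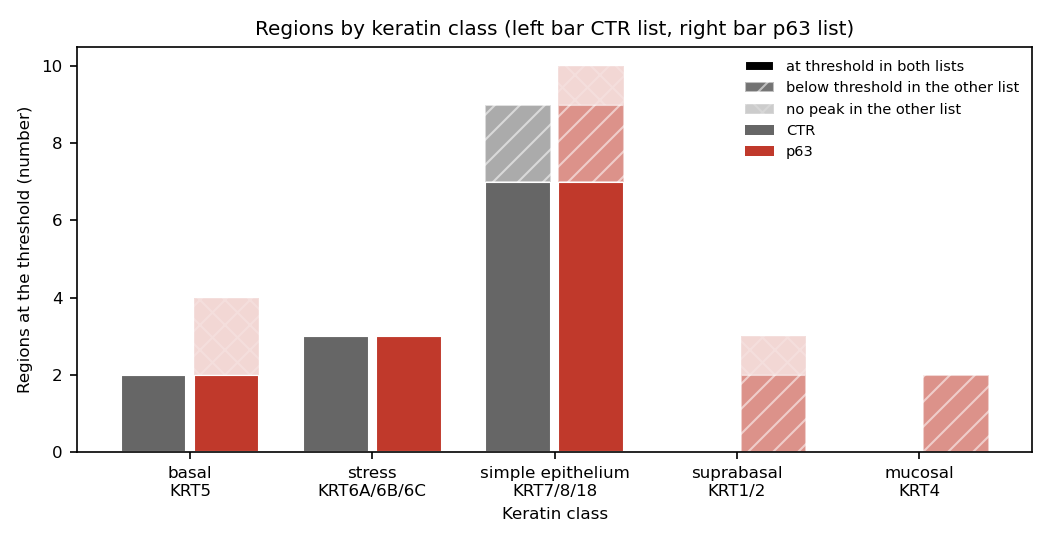
Number of regions at the threshold (vertical axis) per keratin class (horizontal axis), with the CTR list in grey at the left and the p63 list in red at the right of each class. Solid parts are shared regions, hatched parts have a peak below the threshold in the other list and pale parts have no peak there. The 3 stress regions are solid in both lists, and the suprabasal and mucosal classes have bars in the p63 list only. Each region is counted once, so the p63-only region in reach of both KRT5 and KRT6A stands in the basal class.

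The simple-epithelium genes KRT7, KRT8 and KRT18 had more regions than any other class, with 9 CTR regions and 10 p63 regions, 7 of them shared. Fibroblasts expressing KLF4 alone thus had accessible regions around these genes. KRT8 and KRT7 were the longest of the 10 genes, at 52768 and 19667 bp, and the counts were not scaled to the sequence searched. The region with the highest −log10 q of all 10 genes, in both lists, lay in an intron of KRT7, at chr12:52243671-52244775 in the p63 list. Its summit was 128 bp in CTR and 72 bp in p63 from an annotated KRT7 start site that is not the canonical one. The pileup was 68 in CTR and 84 in p63, and the −log10 q was 50.7 in CTR and 65.3 in p63. The KRT18 intron region also overlaps the first part of long KRT8 isoforms. Its summit was 7 bp in CTR and 13 bp in p63 from an annotated, non-canonical KRT8 start site. It had a pileup of 56 in CTR and 62 in p63 and a fold enrichment of 9.37 in CTR and 9.54 in p63. The intervals of the pileup ratio ran from 0.887 to 1.73 at the KRT7 intron and from 0.759 to 1.62 at the KRT18 intron. Both held the AP-1 motif shown above.

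Inside the long KRT8 isoforms, the shared region at −20.04 kb had a pileup of 49 in CTR and 76 in p63, a ratio of 1.55 (1.07 to 2.27). Its neighbour at −22.38 kb had 63 in CTR and 66 in p63, with a ratio of 1.05 whose interval included 1. The other 3 KRT7 regions, between −19.52 and −2.67 kb, had pileups of 29 to 37 in CTR and 33 to 41 in p63, and each of their ratio intervals included 1.

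The simple-epithelium genes had 3 p63-only and 2 CTR-only regions. The KRT7 region at chr12:52215651-52216094, at −17.37 kb and inside the noncoding gene LINC00592, had no CTR peak and a fold enrichment of 5.91 at a pileup of 25. The other 2 lay past the end of KRT8. At 8.57 kb the fold enrichment was 5.68 in CTR and 8.27 in p63, and at 20.12 kb it was 4.61 in CTR and 6.04 in p63. The CTR-only regions lay in long KRT8 isoforms, at −3.27 kb with a fold enrichment of 6.86 in CTR and 6.69 in p63, and at −32.96 kb with 7.34 in CTR and 5.17 in p63. The first differed by 1 read of pileup, 17 in CTR and 16 in p63, and passed the threshold in 1 list with a −log10 q of 10.37 against 9.74 in the other. For these 4 regions present in both lists, every interval of the pileup ratio included 1. The 2 CTR-only regions had 90.6% and 81.4% unique 50-base sequences.

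KRT18 had the only peak that covered the canonical start site of any of the 10 genes. It was a p63 peak at chr12:52949018-52949178 with a fold enrichment of 2.88, a −log10 q of 3.24 and a pileup of 18, below the threshold and without a CTR counterpart. The local background was 5.60. A weak p63 peak in the long KRT8 isoforms, at −11.64 kb from the canonical KRT8 start site and chr12:52916557-52916806, held the closest match to the p63 site, with 1 mismatch and its centre 47.5 bp from the summit. It had a fold enrichment of 4.69, a −log10 q of 4.46 and a pileup of 9, and no CTR counterpart, so it stands below the threshold used for the counts.

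At the suprabasal and mucosal genes the CTR list had no region. At KRT1 the p63 list had 3, all p63-only. The region at −4.07 kb, chr12:52684268-52684752, had a pileup of 8 in CTR and 20 in p63, a ratio of 2.50 (1.05 to 6.56), and its fold enrichment of 4.13 in CTR and 9.53 in p63 gave the largest ratio of the matched keratin peaks, 2.31. At 12.56 kb, between KRT2 and KRT1, the pileup was 11 in CTR and 25 in p63, a ratio of 2.27 (1.08 to 5.12), and the fold enrichment was 5.51 in CTR and 8.62 in p63. The last, at −18.68 kb in an intron of KRT77, had no CTR peak and a fold enrichment of 8.59 in p63. The KRT77 start site was nearer to it, at 3734 bp. The first 2 were called p63-only because they passed the threshold in p63 and not in CTR. That rule favours ratios above 1, and the intervals do not allow for it. All 3 lay away from the KRT1 start site, and no peak of either list fell inside KRT1.

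KRT2 had no region of its own and was in reach only of the KRT1 region at 12.56 kb. Its own peaks, 2 from CTR and 1 from p63, were below the threshold, with pileups of 8, 8 and 7, and none had a counterpart in the other list. At KRT4 the 2 p63-only regions lay past the 3′ end of the gene, towards KRT3, whose start site was nearer, at 2114 and 4871 bp. The pileup was 20 in CTR and 27 in p63 at 15.88 kb and 13 in CTR and 24 in p63 at 13.13 kb, and both intervals of the ratio included 1. On the other side of KRT4 the values ran the opposite way, with a pileup of 18 in CTR and 12 in p63 at −4.57 kb and of 12 in CTR and 7 in p63 at −8.50 kb, all below the threshold.

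**Figure D3:**
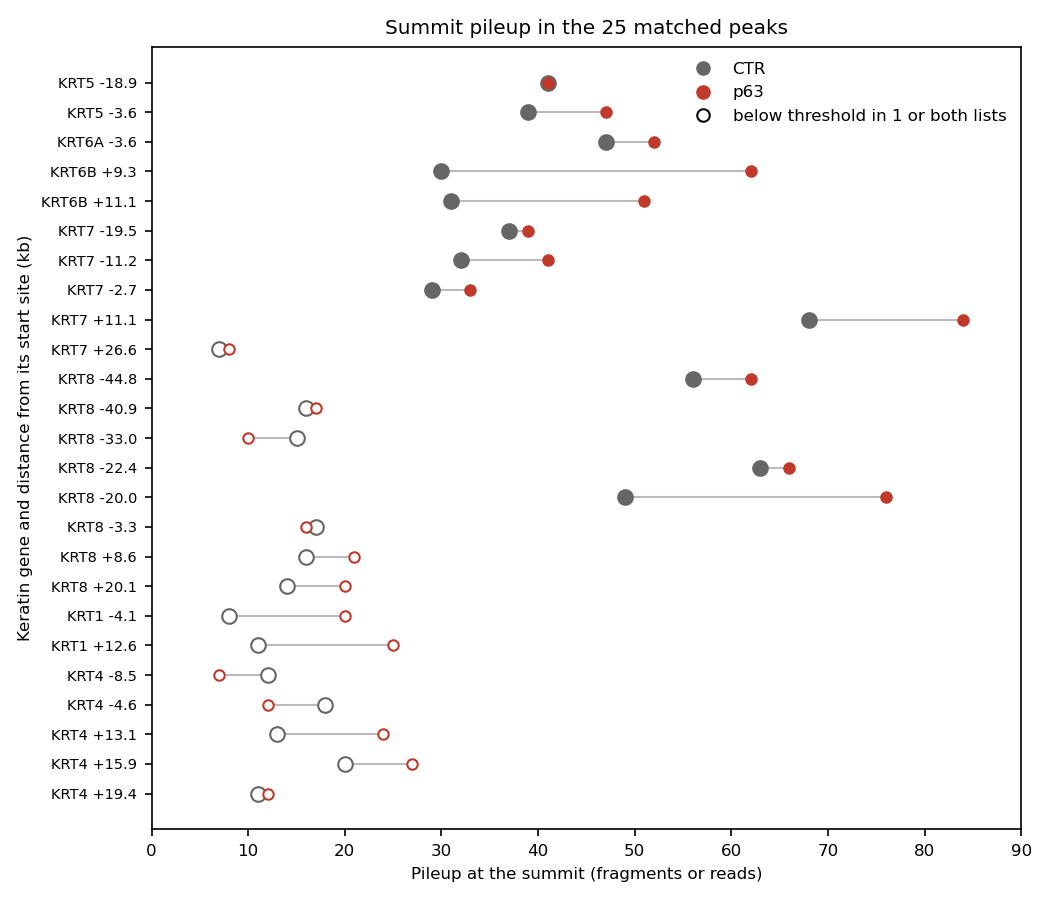
Pileup at the summit (horizontal axis, reads or fragments) in the CTR list (grey) and the p63 list (red) for the 25 matched keratin peaks, named by gene and distance from its start site in kb (vertical axis). Filled points are shared regions and open points belong to pairs below the threshold in 1 or both lists. KRT6B at 9.3 kb has the longest line among the filled points, from 30 to 62, and KRT5 at −18.9 kb lies at 41 in both.

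Over the 12 shared keratin regions the median p63/CTR ratio of fold enrichment was 0.997, against 1.04 over all 47153 shared regions matched as each other's best overlap. None of the 12 reached a ratio of 1.5 (background 3.06%), and 1, the KRT5 region at −3.63 kb, was at or below the inverse of 1.5 (background 1.38%). Across the 25 matched peaks of any strength 3 reached 1.5, both KRT1 pairs and KRT4 at 13.13 kb (background 7.46%). All 3 were p63-only regions, a choice that itself favours a high ratio. By class, the median ratio over shared regions was 0.731 at the 2 basal regions, 1.09 at the 3 stress regions and 1.02 at the 7 simple-epithelium regions. These ratios compare the peak caller's values and were not scaled between the lists, in which the median pileup of all regions was 33 alike.

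The pileup and the local background of the same 12 regions were compared too, the background ratio having been chosen after the values were seen. The pileup was higher in p63 at 11 of 12 and equal at 1, with a median ratio of 1.17 against 1 over all shared regions, where it was higher at 49.9%. It reached 1.5 at 3 of 12, at both KRT6B regions and KRT8 at −20.04 kb (background 7.28%). The local background was higher in p63 at all 12, against 40.8% of all shared regions, with a median ratio of 1.25 against 0.96. It reached 1.5 at 3 of the 12, both KRT6B regions and KRT5 at −3.63 kb (background 3.24%). By class the median background ratio was 1.71 at the basal, 1.63 at the stress and 1.17 at the simple-epithelium regions. Neighbouring regions share reads from which the background is estimated and are not independent. The cause of the higher background was not tested.

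**Figure D4:**
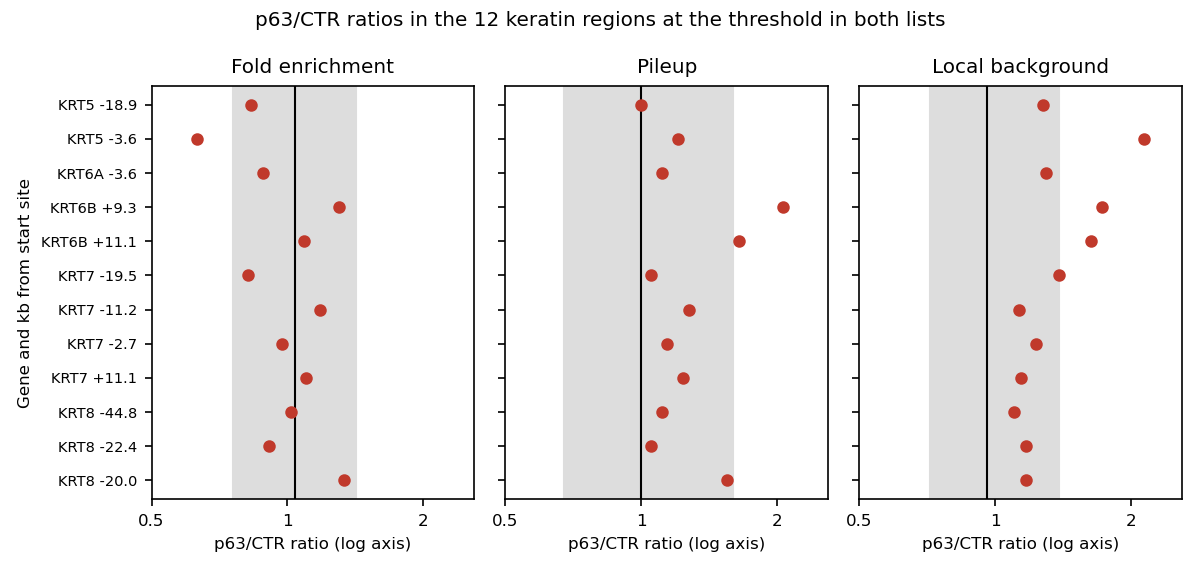
p63/CTR ratios (horizontal axes, log scale) of fold enrichment, pileup and local background in the 12 keratin regions at the threshold in both lists, named by gene and kb from the start site (vertical axis). The grey band holds the 5th to 95th percentiles and the black line the median of all 47153 shared regions. In the background panel all 12 points lie to the right of the line, and KRT5 at −3.6 kb is farthest right at 2.14 while it is farthest left for fold enrichment at 0.631.

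Within 100 bp of the summit, the p63 site was found in 1 of 22 p63 regions and 0 of 14 CTR regions, against 3.78% and 0.932% of all regions of the lists, and in 11.4% of all p63-only and 1.39% of all shared regions of the p63 list. Of the 10 p63-only keratin regions the 1 with a site was the KRT5 region at −2.56 kb. AP-1 was found in 6 of 14 CTR regions (26.9% of all) and 2 of 22 p63 regions (25.4% of all). The windows of a shared region differ between the lists as the summits do. All 6 CTR regions with the motif were shared, and in each the motif also lay within the matched p63 peak. Where it was not counted in p63, it lay outside the 100 bp around the p63 summit. In the shared regions the difference in counts thus follows the summit positions. The TEAD motif (ACATTCCA, ACATTCCT, GCATTCCA or GCATTCCT, either strand) was found in 3 of 14 and 3 of 22 (8.90% and 8.24% of all), among them both KRT6B regions in both lists. The KLF motif (GGGCGGGGC, GGGCGTGGC, GGGTGGGGC or GGGTGTGGC, either strand) was found in none (7.40% and 7.14% of all), and only the weak peak at the KRT18 start site held it.

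The 17 other type II keratin genes in the same cluster had 13 p63-only regions of 32 by the same rule, or 40.6%. Without the regions shared with the 10 genes this was 9 of 23, or 39.1%. Of their 22 CTR regions 3 were CTR-only. The 6 type I genes KRT10, KRT13, KRT14, KRT16, KRT17 and KRT19 on chromosome 17 had 5 p63-only regions of 16, or 31.2%, in reach of KRT13, KRT16, KRT17 and KRT19, and no CTR-only region of 11. The 10 genes covered 366.6 kb with 38.2 regions per Mb in CTR and 60 in p63, against 18.4 and 20.2 over the genome. The genome figures include sequence far from any gene, so they are not a like background for gene windows. No density at other genes by the same rule is given here.

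Regions within 1 kb of a start site were counted at marker genes of 5 cell types. Of 12 fibroblast genes 10 had one in each list, COL3A1 and PDGFRA being the exceptions. Of 12 keratinocyte genes 5 had one in CTR and 6 in p63. KRT15, CDH1, DSP, ITGA6 and PERP had one in both lists, and EPCAM had one in p63 only. KRT14, DSG3, SFN, ITGB4, GRHL2 and ESRP1 had none in either. Endothelial genes had one at 1 of 6 in both lists, leukocyte genes at 3 of 6 in CTR and 1 of 6 in p63, and melanocyte genes at 2 of 6 in both. The share over all genes is not given here, so these counts do not establish cell identity. In bulk cells a change in part of the population and a change in every cell cannot be told apart.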

How the data were processed

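ATAC-seq was performed on BJ fibroblasts expressing KLF4 (CTR) or ΔNp63α and KLF4 (p63), 2 samples per group. Reads were aligned with Bowtie2 (2.3.4.3) and peaks called with MACS2, per the submitters' processing notes. The authors deposited 1 narrowPeak list per group with the fold enrichment and the −log10 p-value and q-value of each summit. The MACS2 version and options, duplicate handling, Tn5 shift, excluded regions and read length are not given in the sources used here, and the read depth is unknown.

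Peaks were placed on GRCh38 with GENCODE 44. Pileup and local background were solved from fold enrichment, (pileup + 1)/(background + 1), and the Poisson p-value of the deposited lists. The pileup came out whole within 0.05 in 100% of peaks. Regions had a −log10 q of at least 10. Shared meant 1 bp of overlap, and ratios used each other's best overlap. Pileup ratios carry exact 95% binomial intervals, which cover counting error only and treat reads as independent. The pileups were not scaled for depth, and whether an interval includes 1 is not a test of the groups. Uniqueness was the share of 50-base sequences found once on either strand of chromosomes 1 to 22, X and Y. No test was run, because each group had 1 list. Alternatives covered the threshold, overlap, window, transcripts, merging and motif settings. All 10 genes were named, with every list-only region at the threshold, the strongest regions and matched pairs past 1.5-fold. The genes, lists and measures were chosen with earlier results of these data known. Scripts used Python 3.11.15, numpy 2.4.6, pandas 2.3.3, scipy 1.17.1, pysam 0.24.0 and matplotlib 3.10.9, and were tested on simulated data.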

Additional observations from a re-analysis of the deposited data

How the results depend on the processing

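No paired analysis was possible because each deposited list pools both samples of its group. For the same reason leaving out a replicate could not be run. All counts rest on 1 threshold and 1 window. The 14 CTR and 22 p63 regions became 29 and 42 with all peaks, 9 and 12 at a −log10 q of 20, and 31 and 39 with a window of 50 kb, and the p63 regions became 14 with 10 kb. The 10 p63-only regions of 22 (45.5%, 23.9% of all regions) became 17 of 42 (40.5%, 27.1% of all) with all peaks, 4 of 12 (33.3%, 24.6%) at a −log10 q of 20, 6 of 14 (42.9%, 23.9%) with 10 kb, 13 of 39 (33.3%, 23.9%) with 50 kb, and 4 of 22 (18.2%, 12%) where no peak of the other list was allowed. The 2 CTR-only regions of 14 (14.3%, 16.5% of all) became 4 of 29 (13.8%, 21.4%), 1 of 9 (11.1%, 15.4%) and 5 of 31 (16.1%, 16.5%) with all peaks, a −log10 q of 20 and 50 kb, and 0 of 14 (3.29% of all) where no peak was allowed. The 7 genes with a p63-only region became 4 at a −log10 q of 20, with 10 kb, and where no peak was allowed. The median ratio of 0.997 became 1.17 for pileup and 1.09 for matched peaks of any strength, on the other side of 1. The basal ratio of 0.731 became 1.1 for pileup. The stress ratio of 1.09 became 1.65 for pileup and 0.886 at a −log10 q of 20, where 1 pair was left. p63 sites in p63 regions went from 1 to 0 at 2 mismatches and 4 at 4, and in CTR regions from 0 to 1 at 4. The other 38 of 64 values moved by at most 1.5-fold or stayed within the counting interval. The suprabasal and mucosal classes had no shared region and gave no ratio.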
